A study of Mus musculus with 10 samples.

Results

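A set of 10 transcripts of the interleukin 1 and interleukin 18 system was followed in mouse tumour-associated macrophages, bulk sorted from PyMT mammary tumours. They were the cytokines Il1a, Il1b and Il18, the antagonist Il1rn, the decoy receptor Il1r2, the binding protein Il18bp, and the inflammasome genes Nlrp3, Pycard, Casp1 and Gsdmd. The genes were taken by symbol, and all 10 were found among the 21938 genes of the deposited tables. All 10 also passed the filter on low values of at least 10 reads in at least 3 libraries, and 9 had at least 10 reads in every library, Il1r2 being the exception.

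All mice were C57BL/6, received PyMT tumour cells in 2 mammary glands and carried the tumours for 5 weeks before macrophages were sorted. As control, 3 libraries came from wild-type (WT) mice bearing WT tumour cells. The 4 libraries of the Mertk KO group came from mice with a macrophage-specific knockout of the phagocytic receptor MerTK and WT tumour cells. The 3 libraries of the Ptdss1 knockdown group came from WT mice whose tumour cells had reduced Ptdss1, a gene for a phosphatidylserine synthase. The sources used here do not give the age and sex of the mice, the Cre driver or the part of Mertk removed. Nothing in the labels states whether libraries came from separate mice, so p-values measure the spread between these libraries, which may be technical.

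Total recovered reads ran from 10292592 to 25815071 per library. Mertk itself had 585 to 2748 reads in the control group, 616 to 1080 in the Mertk KO group and 203 to 1248 in the Ptdss1 knockdown group. The Mertk values of the Mertk KO and control groups overlapped (log2 fold change -0.32, SE 0.70, limma adjusted p = 1.0). Because the removed part of the gene is not given, these gene totals do not check the label, and "Mertk KO" below means the libraries labelled so. All 11 macrophage markers, among them Adgre1, Csf1r and C1qa, had at least 10 reads in every library. Ptdss1 knockdown replicate 1 stood apart, with 6995 genes at 10 reads or more against 9066 to 11523 in the other libraries. It listed at 0 a total of 74 genes that had at least 100 reads in each of the other 9 libraries. Control replicate 2 listed 41 such genes at 0. The remaining libraries listed 0 to 4.

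Interleukin 1 alpha and beta act on the same signalling receptor and drive inflammation. Il1b is transcribed after stimulation through NF-kB, and its inactive precursor is cut by caspase-1, as is that of interleukin 18. Caspase-1 is activated on inflammasomes, in which the sensor NLRP3 binds the adaptor ASC, encoded by Pycard, and caspase-1 also cuts gasdermin D, which forms pores in the membrane. The interleukin 1 receptor antagonist, encoded by Il1rn, occupies the receptor without signalling. The decoy receptor IL1R2 binds interleukin 1 but lacks a signalling domain, and IL-18BP neutralises interleukin 18. RNA levels do not show whether any precursor was cut or released.

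The sequences before the transcription start are shown for both interleukin 1 cytokines and for their inhibitors Il1rn and Il1r2, the genes most of the results below concern. Each is the 150 bases before a RefSeq start in GRCm38.p6, written 5′ to 3′ on the gene's strand, at chr2:129309973-129310122 (minus strand) for Il1a, chr2:129371140-129371289 (minus) for Il1b, chr2:24336710-24336859 (plus) for the first Il1rn start and chr1:40085943-40086092 (plus) for Il1r2. Capitals mark matches to a TATA box (TATAAA, gene strand only), an AP-1 site (TGANTCA) or the core of a PU.1 site (GAGGAA), the last 2 searched on both strands.
Il1a: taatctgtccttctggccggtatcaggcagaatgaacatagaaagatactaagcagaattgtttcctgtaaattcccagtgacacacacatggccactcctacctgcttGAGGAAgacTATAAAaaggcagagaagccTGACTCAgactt
Il1b: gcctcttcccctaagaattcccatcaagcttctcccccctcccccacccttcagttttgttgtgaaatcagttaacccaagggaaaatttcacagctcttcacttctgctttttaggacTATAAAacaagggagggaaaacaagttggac
Il1rn: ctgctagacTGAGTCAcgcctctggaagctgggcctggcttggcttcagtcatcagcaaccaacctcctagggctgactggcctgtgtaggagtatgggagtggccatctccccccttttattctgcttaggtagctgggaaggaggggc
Il1r2: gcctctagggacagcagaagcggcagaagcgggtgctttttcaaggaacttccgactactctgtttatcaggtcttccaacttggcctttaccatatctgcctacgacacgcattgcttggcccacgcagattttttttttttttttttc
The TATA box began 32 bases before the start of Il1a and 31 bases before that of Il1b. Il1a also held a PU.1 core at 41 and an AP-1 match at 12 bases before the start, and the first Il1rn start held an AP-1 match at 141. The Il1r2 window and those of the other Il1rn starts, not shown, held none of these motifs. RefSeq windows were present for 9 of the 10 genes, with 12 starts in all. A TATA box lay in 2 of the 12 windows, against 4.84% of all 32851 mouse windows of the same length, an AP-1 match in 2 (4.24% of all) and a PU.1 core in 4 (14.5% of all). The kappaB consensus was in 0 of the 12 and in 2.38% of all windows. A match is a run of letters and not a shown binding site, and a missing match says only that those letters are not in this window.

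Levels per length separated Il1b from the rest of the set. In RPKM (reads scaled to exon length and to the library total), the median over the 10 libraries was 856 for Il1b (range 472 to 1331), above every library's value for the other 9 genes. Il18bp followed at a median of 112 (72.2 to 160), Pycard at 84.0 (41.1 to 129), Casp1 at 69.8 (28.1 to 89.4), Il1a at 64.4 (38.2 to 164) and Il1rn at 54.7 (36.7 to 167). Gsdmd stood at 41.8 (6.68 to 125), Il18 at 24.3 (18.8 to 87.2), Nlrp3 at 9.69 (6.39 to 66.8) and Il1r2 at 4.92 (0.0546 to 149). From Il18bp downwards, each neighbour in this order had a range that overlapped the next. Exon length here joins all annotated exons of a gene, giving 1907 bases for Il1b, 3800 for Pycard and 5535 for Il1rn. Where that exceeds the length of the transcripts present, the RPKM is too low, so the order is approximate. All later levels are the deposited log2 of normalised reads plus 1, on which a fold change understates the change of low genes.

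The genes differed widely in how far they moved between libraries. The range of log2 levels over the 10 libraries was 10.91 for Il1r2, wider than that of 99.2% of the 11564 genes tested. At the other end, the range was 1.32 for Il18bp, 1.58 for Il1b, 1.62 for Pycard and 1.68 for Casp1, and only 4.63%, 8.25%, 8.70% and 9.59% of the tested genes had a smaller one. The median range over all tested genes was 5.26. Il1a (1.94), Il18 (2.24), Il1rn (2.53), Nlrp3 (3.82) and Gsdmd (4.60) lay between, also below that median. Ptdss1 knockdown replicate 1, the library with the fewest genes, held the highest level of 5 of the 10 genes, namely Il1b, Il1rn, Nlrp3, Casp1 and Gsdmd. The 8 monocyte markers summed to 2093 CPM (reads scaled to the library total) in that library, against 142 to 1066 elsewhere. Ccr2 alone had 1229 CPM there. Knockdown replicate 2, the lowest for Il1b, Il18bp and Nlrp3, had a monocyte sum of 1003 CPM. The 13 dendritic cell markers were highest in Mertk KO replicate 3, at 661 CPM against 12.0 to 340 elsewhere. The part of these cells in the values of the 10 genes was not tested.

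**Figure D1:**
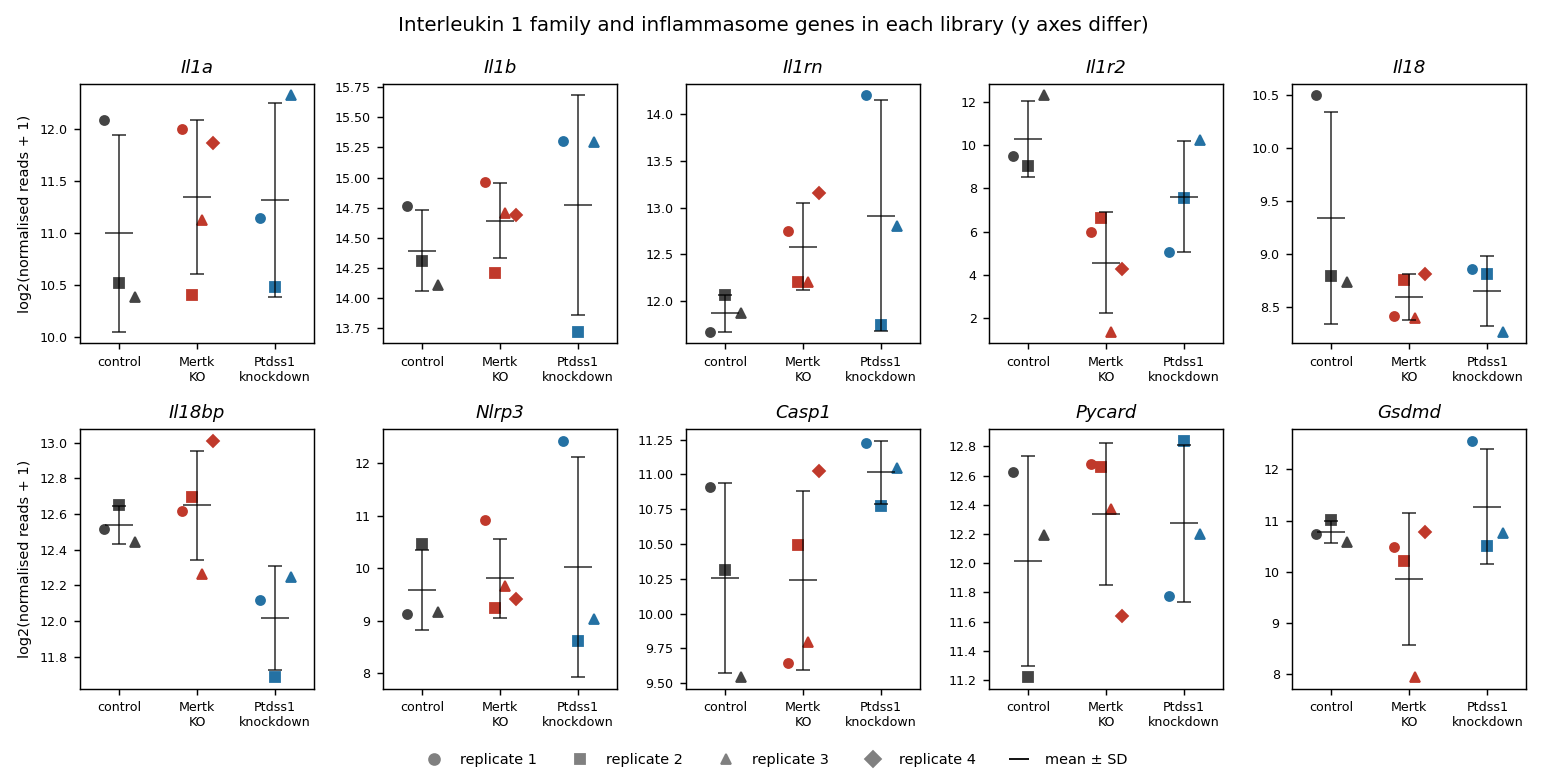
Deposited log2(normalised reads + 1) of each of the 10 genes (panels) in every library (points), by group, with the mean and SD as bars; the y axes differ between panels. Il1r2 in the 4 Mertk KO libraries sits between 1.39 and 6.63, all below the 3 control libraries at 9.04 to 12.30, while most other genes overlap between groups.

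No member passed the threshold of an adjusted p under 0.05 in either comparison with control, using limma over all 11564 tested genes. Against control, 0 of 10 passed in the Mertk KO group, where 0.0173% of all tested genes passed, and 0 of 10 in the Ptdss1 knockdown group, where 0% did. At an unadjusted p under 0.05 the counts were 1 of 10 (Il1r2) against 2.06% of all genes in the Mertk KO group, and 0 of 10 against 2.9% in the Ptdss1 knockdown group. With voom the count of members passing was also 0 in both. The 2 genes that passed in the Mertk KO group were Spp1 and Fn1, both higher. The median log2 fold change of the 10 genes was 0.17 in Mertk KO and 0.35 in Ptdss1 knockdown macrophages, beside 0.016 and -0.053 over all tested genes. Both comparisons use the same 3 control libraries.

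**Figure D2:**
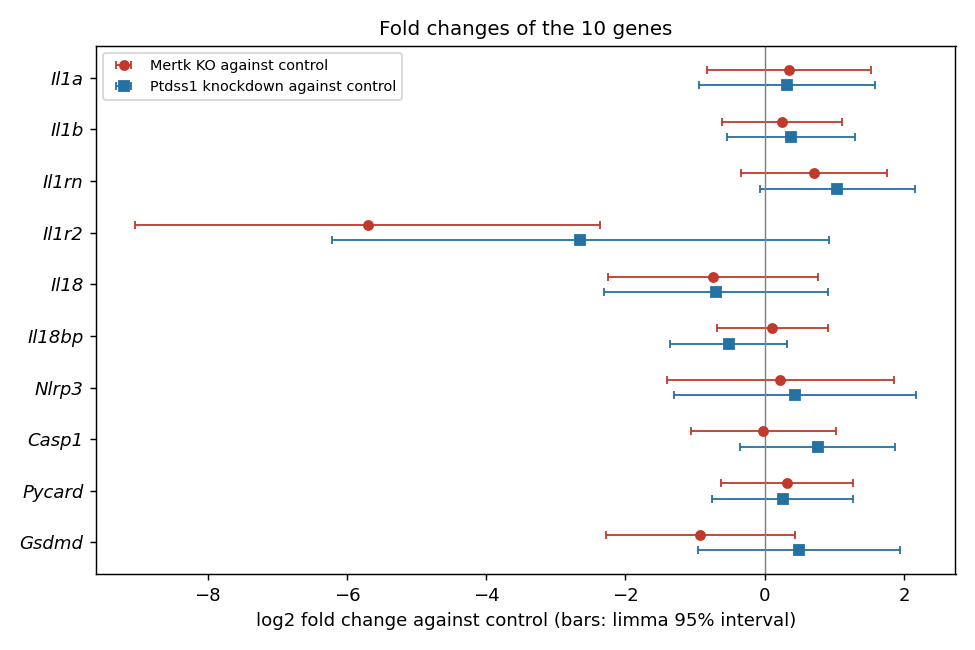
Log2 fold change against control of each gene (rows) in Mertk KO (circles) and Ptdss1 knockdown (squares) macrophages, with limma 95% intervals as bars. The interval of Il1r2 in Mertk KO, -9.04 to -2.36, is the only one that does not cross 0, and no gene passed the adjusted threshold.

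Il1b, the interleukin 1 agonist that inflammasomes mature, had control log2 levels of 14.76, 14.31 and 14.11. Its Mertk KO levels were 14.96, 14.21, 14.71 and 14.69, and its Ptdss1 knockdown levels 15.30, 13.72 and 15.29. The 3 groups overlapped, and the lowest and highest libraries were both of the knockdown group. The log2 fold change was 0.25 (95% interval -0.61 to 1.11, adjusted p = 1.0 by limma) in Mertk KO and 0.38 (-0.54 to 1.30, adjusted p = 0.863) in Ptdss1 knockdown macrophages. Without control replicate 3 the former was 0.11. Without Ptdss1 knockdown replicate 1 the latter was 0.11, and without replicate 2 it was 0.91. Gene body overlap with the antisense gene Il1bos was 25 exonic bases, and reads were not stranded.

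Il1a, the second interleukin 1 agonist, lies next to Il1b on chromosome 2. Its levels were 12.09, 10.52 and 10.39 in control, 12.00, 10.40, 11.12 and 11.86 in Mertk KO, and 11.14, 10.48 and 12.32 in Ptdss1 knockdown libraries. Each group held libraries near 10.5 and near 12, and the groups overlapped throughout. The log2 fold changes were 0.35 (-0.83 to 1.53, adjusted p = 1.0 by limma) and 0.32 (-0.95 to 1.58, adjusted p = 0.935). The first was -0.26 with array weights and 0.89 without control replicate 1, and the second was -0.19 without Ptdss1 knockdown replicate 3. Of its exonic bases, 222 overlap Gm14023 on the opposite strand, whose reads cannot be told from its own.

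The interleukin 1 receptor antagonist Il1rn was higher in every Mertk KO library than in any control library, by a small margin. Its control levels of 11.68, 12.07 and 11.87 compared with Mertk KO levels of 12.75, 12.20, 12.21 and 13.16, with means of 11.87 ± 0.20 (SD, n = 3) and 12.58 ± 0.47 (SD, n = 4). The log2 fold change was 0.71 (SE 0.50, 95% interval -0.34 to 1.75) and did not pass (adjusted p = 1.0 by limma). It lay between 0.51 and 0.83 when single libraries were left out. It was the 1 member of 10 whose Mertk KO libraries all lay above control, against 3% of all tested genes.

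In the Ptdss1 knockdown group Il1rn was at 14.20, 11.75 and 12.80. Replicate 1 was the highest of all 10 libraries and replicate 2 lay within the control range. The log2 fold change was 1.04 (-0.07 to 2.16, adjusted p = 0.841 by limma), and without replicate 1 it was 0.40.

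Markers of epithelial and tumour cells also differed between these libraries. Their summed level in CPM (reads scaled to the library total) was 21.3 to 33.0 in control, 65.9 to 160 in Mertk KO and 0.256 to 60.0 in Ptdss1 knockdown libraries. Of the 13 listed, the cell-surface marker Epcam was at 0 reads in every control and Mertk KO library, while the cadherin Cdh1 had 299 to 587 control reads and 612 to 1849 Mertk KO reads. Cdh1 alone had 20.2 to 24.2 CPM in control and 55.4 to 96.2 in Mertk KO libraries, and so made up most of these sums. The exception was Mertk KO replicate 4, where Krt8 had 72.0 CPM beside 57.1 for Cdh1. In the other Mertk KO libraries Krt8 had 0.0520 to 6.70 CPM. The part of epithelial and tumour cells in the Il1rn values was not tested.

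The decoy receptor Il1r2 showed the widest separation of the set. Its control read numbers were 884, 504 and 6875, and its Mertk KO read numbers 43, 120, 2 and 23. On the log2 scale these were 9.49, 9.04 and 12.30 against 6.00, 6.63, 1.39 and 4.28, so that every Mertk KO library lay below every control library. The group means were 10.28 ± 1.76 (SD, n = 3) and 4.58 ± 2.34 (SD, n = 4), and both groups were spread widely. Mertk KO replicates 3 and 4, the lowest here, also missed more of the commonly read genes than Mertk KO replicates 1 and 2.

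The log2 fold change of Il1r2 in Mertk KO was -5.70 (SE 1.59, 95% interval -9.04 to -2.36), a level 52.1-fold lower with an interval of 5.14- to 527-fold. It did not pass over all genes (adjusted p = 1.0 by limma). Only 0.0259% of tested genes, 3 in all, had a fold change at least as negative. The other 2 were Nek3 (-5.95) and Xlr (-5.73), named after their values were seen. A complete separation downwards occurred in 1 of the 10 members and in 2.62% of all tested genes.

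With each library weighted by its estimated precision (array weights), Il1r2 was the only member to pass in any of 21 alternative settings. Its log2 fold change was then -4.54 (SE 0.97, adjusted p = 0.0478 by limma), in a fit where 25 of all tested genes passed, and over the other settings the adjusted p reached 1. Leaving out single libraries gave -6.39 (without Mertk KO replicate 2) to -4.64 (without Mertk KO replicate 3), all in the same direction. In a bulk sample, fewer cells of a type and less RNA per cell cannot be told apart.

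In the Ptdss1 knockdown group Il1r2 had 38, 199 and 1981 reads, or log2 levels of 5.09, 7.55 and 10.25. Replicate 3 lay within the control range and the other 2 below it. The log2 fold change was -2.65 (SE 1.70, 95% interval -6.22 to 0.92, adjusted p = 0.841 by limma). It was -1.38 without Ptdss1 knockdown replicate 1, -3.96 without replicate 3, -1.64 without control replicate 3 and -0.95 with array weights. A fold change at least as negative was found in 5.61% of tested genes.

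Il1r2 is also transcribed by neutrophils and by some T cells, whose markers were read in the same libraries. Of 17 neutrophil markers, 7 were at 0 in all 10 libraries, among them S100a9, Ly6g and Elane. The summed neutrophil list was 43.2 to 98.8 CPM in control, 52.4 to 93.4 in Mertk KO and 40.9 to 277 in Ptdss1 knockdown libraries. Only 1 of the 17, Csf3r, had at least 10 reads in every library. Csf3r alone had 40.9 to 98.8 CPM in control, 25.2 to 72.4 in Mertk KO and 36.1 to 274 in knockdown libraries. The 11 T and NK cell markers summed to 87.6, 27.2 and 57.4 in control libraries 1 to 3. Mertk KO sums were 45.2, 26.2, 0.312 and 0.891, and knockdown sums 2.64, 137 and 6.66. The 2 Mertk KO libraries with the fewest Il1r2 reads, replicates 3 and 4, were also those with the lowest T and NK sums of their group. Replicate 2 of the knockdown had the highest sum with an intermediate Il1r2 level. Knockdown replicate 3 had 1981 Il1r2 reads with a sum of only 6.66. Nkg7 alone had 54.6, 26.9 and 27.6 CPM in control libraries 1 to 3, where Cd3e had 0, 0 and 68 reads. The part of these cells in the Il1r2 values was not tested.

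Il18, whose product stimulates interferon gamma production by T and NK cells, had similar levels in nearly all libraries. It was at 10.50, 8.79 and 8.73 in control, 8.41, 8.75, 8.39 and 8.81 in Mertk KO, and 8.86, 8.81 and 8.26 in Ptdss1 knockdown libraries. Control replicate 1 alone stood above 9. Fold changes on the log2 scale were -0.75 (-2.26 to 0.76, adjusted p = 1.0 by limma) and -0.70 (-2.31 to 0.92, adjusted p = 0.858). Without control replicate 1 they were -0.17 and -0.12.

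Il18bp had the narrowest range of the 10 genes. It was at 12.52, 12.65 and 12.44 in control, 12.62, 12.70, 12.26 and 13.01 in Mertk KO, and 12.12, 11.69 and 12.25 in Ptdss1 knockdown libraries. All 3 knockdown libraries lay below all control libraries, with means of 12.02 ± 0.29 and 12.54 ± 0.11 (SD, n = 3 each). The log2 fold change was -0.52 (-1.37 to 0.33, adjusted p = 0.841 by limma) and lay between -0.63 and -0.36 when single libraries were left out. It was the 1 member of 10 fully below control in that comparison, against 3.6% of all tested genes, and no member lay fully above, against 3.32%. In Mertk KO the fold change was 0.11 (-0.68 to 0.90, adjusted p = 1.0 by limma), and -0.010 without Mertk KO replicate 4. An 80-base stretch of its exons overlaps Numa1 on the opposite strand.

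Nlrp3, the inflammasome sensor, was at 9.13, 10.47 and 9.16 in control, 10.91, 9.24, 9.66 and 9.42 in Mertk KO, and 12.43, 8.60 and 9.04 in Ptdss1 knockdown libraries. A single knockdown library, replicate 1, was above all the others, and the remaining 2 were the lowest of all 10. The log2 fold changes were 0.22 (-1.41 to 1.85, adjusted p = 1.0 by limma) and 0.44 (-1.31 to 2.18, adjusted p = 0.935). Without Mertk KO replicate 1 the first was -0.15, and without Ptdss1 knockdown replicate 1 the second was -0.77.

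Pycard, encoding the adaptor ASC, was at 12.63, 11.22 and 12.19 in control, 12.68, 12.66, 12.37 and 11.64 in Mertk KO, and 11.78, 12.84 and 12.20 in Ptdss1 knockdown libraries. The groups overlapped, with control replicate 2 lowest. Log2 fold changes of 0.32 (-0.63 to 1.27, adjusted p = 1.0 by limma) and 0.26 (-0.76 to 1.27, adjusted p = 0.934) were found. Without control replicate 2 they were -0.074 and -0.14. Its exons share 485 bases with Gm45205 on the other strand.

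Casp1, the protease that matures both cytokines, had control levels of 10.91, 10.31 and 9.55 and Mertk KO levels of 9.64, 10.49, 9.79 and 11.02. The Ptdss1 knockdown libraries were at 11.22, 10.77 and 11.05, a tight group whose lowest library lay below the highest control library. The log2 fold changes were -0.019 (-1.06 to 1.03, adjusted p = 1.0 by limma) and 0.76 (-0.36 to 1.88, adjusted p = 0.841). Leaving out single libraries gave -0.37 to 0.31 for the first and 0.40 to 1.09 for the second.

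Gsdmd, the pore-forming substrate of caspase-1, was at 10.75, 11.01 and 10.58 in control, 10.48, 10.21, 7.95 and 10.77 in Mertk KO, and 12.56, 10.50 and 10.76 in Ptdss1 knockdown libraries. Mertk KO replicate 3 was the lowest and Ptdss1 knockdown replicate 1 the highest of all libraries, and the other 8 lay within 1 unit. The log2 fold changes were -0.93 (-2.28 to 0.43, adjusted p = 1.0 by limma) and 0.49 (-0.96 to 1.94, adjusted p = 0.888). Without Mertk KO replicate 3 the first was -0.29, and without Ptdss1 knockdown replicate 1 the second was -0.15.

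The inhibitor of each cytokine was also set against the cytokine within the same library, as a difference of log2 levels and with no test. Il1rn minus Il1b was -3.09, -2.24 and -2.23 in control libraries, -2.21, -2.01, -2.50 and -1.53 in Mertk KO libraries and -1.10, -1.97 and -2.49 in Ptdss1 knockdown libraries. The group means were -2.52 ± 0.49, -2.06 ± 0.41 and -1.86 ± 0.70 (SD, n = 3, 4 and 3), and the groups overlapped. Il1b had more reads than Il1rn in every library. Per joined exon length (1907 and 5535 bases) it exceeded Il1rn by 6.23 to 24.7 times, a factor that depends on these lengths.

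The difference Il1r2 minus Il1b had control values of -5.27, -5.26 and -1.81 and Mertk KO values of -8.96, -7.58, -13.32 and -10.41. All 4 Mertk KO libraries lay below all 3 control libraries. Il1r2 ranged over 10.91 log2 units and Il1b over 1.58, so this difference mostly repeats the Il1r2 values and is not a separate result. The Ptdss1 knockdown libraries, at -10.22, -6.16 and -5.05, spanned both groups. For Il18bp minus Il18, the control values were 2.02, 3.86 and 3.71, the Mertk KO values 4.21, 3.95, 3.87 and 4.20 and the knockdown values 3.26, 2.88 and 3.98. The Mertk KO libraries lay above the control libraries, the closest pair being 3.87 and 3.86, and they were close together (4.06 ± 0.17, SD, n = 4).

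**Figure D3:**
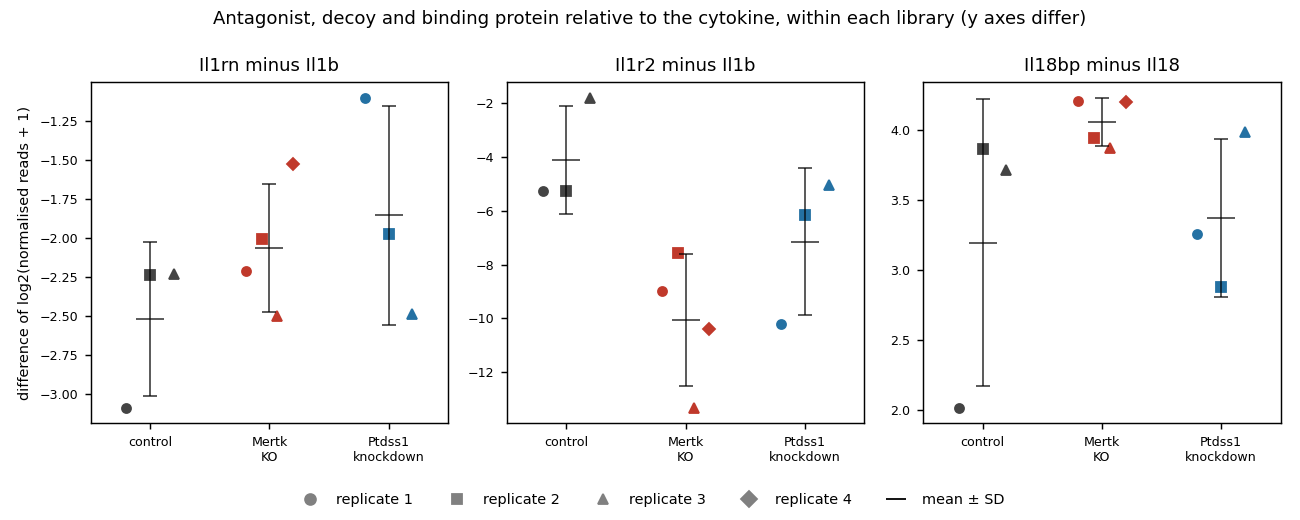
Difference of log2 levels within each library (points) for Il1rn minus Il1b, Il1r2 minus Il1b and Il18bp minus Il18, by group, with mean and SD as bars; the y axes differ. Il1r2 minus Il1b is between -13.32 and -7.58 in Mertk KO and between -5.27 and -1.81 in control libraries.

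The Mertk KO and Ptdss1 knockdown groups were also compared directly, in the same fit over all 10 libraries. None of the 10 genes passed in limma, where 0% of tested genes did, and with voom the count was also 0. At an unadjusted p under 0.05 there was 1 member (Gsdmd), against 3.73% of all genes. Gsdmd was lower in Mertk KO by a log2 difference of -1.42 (SE 0.64, 95% interval -2.77 to -0.06, adjusted p = 0.805 by limma). Without Ptdss1 knockdown replicate 1 the difference was -0.78, and without Mertk KO replicate 3 it was -0.79.

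Il18bp was higher in every Mertk KO library than in every knockdown library, at 12.26 to 13.01 against 11.69 to 12.25. The log2 difference was 0.63 (-0.16 to 1.42, adjusted p = 0.805 by limma), and 2.91% of all tested genes were separated in this direction. The Il1r2 difference of -3.05 (-6.39 to 0.29, adjusted p = 0.805 by limma) was -1.75 without Ptdss1 knockdown replicate 3 and -4.33 without replicate 1.

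Around these 10 genes, 4 lists were read in the same fit: other interleukin 1 family ligands and receptors, the receptor's signalling chain, other inflammasome sensors, caspases and pore genes, and NF-kB priming and feedback genes. No gene of any list passed the threshold in either comparison with control by limma. At an unadjusted p under 0.05 there were 3 of 74 in Mertk KO (Nlrp1a, Gbp2 and Saa3), or 4.05% against 2.06% of all tested genes, and 1 of 74 in the knockdown (Tollip), or 1.35% against 2.9%. Among ligands and receptors, 6 of 14 in the table were tested, with 4 positive and 2 negative fold changes in Mertk KO (median 0.58) and 1 positive and 5 negative in Ptdss1 knockdown macrophages (median -2.0). The signalling list of 17 genes split 9 to 8 in both comparisons (medians 0.029 and 0.054). The second of these medians was -0.16 with upper-quartile scaling and -0.70 without control replicate 2. The 24 tested inflammasome genes split 12 to 12 in Mertk KO (median -0.012) and 17 to 7 in Ptdss1 knockdown macrophages (median 0.61). The 27 tested NF-kB genes were positive 20 to 7 in Mertk KO (median 0.36) and 19 to 8 in Ptdss1 knockdown macrophages (median 0.41). For comparison, 50.9% and 48% of all tested genes had positive fold changes.

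The signalling receptor Il1r1 was nearly unread, with 1, 0 and 20 reads in control, 8, 9, 0 and 526 in Mertk KO and 0, 6 and 0 in knockdown libraries, below the filter. It is named after its values were seen. The single high library, Mertk KO replicate 4, also had 7197 reads of Il33, an alarmin of stromal cells, and the highest sum of fibroblast markers, 249 CPM against 0.0853 to 81.2 in the others. Il33 had 230, 237 and 1 reads in control, 19, 970, 5 and 7197 in Mertk KO and 0, 11 and 0 in knockdown libraries (knockdown log2 fold change -4.27, SE 2.57, adjusted p = 0.841 by limma, and -6.59 without control replicate 3). The part of stromal cells in these values was not tested. The shared accessory chain Il1rap was read in every library, at 131 to 1110 reads, with a log2 fold change of 0.95 (SE 0.99, adjusted p = 1.0 by limma) in Mertk KO, or 0.52 without Mertk KO replicate 4. Of the interleukin 36 and related ligands, Il1f5, Il1f6, Il1f8 and Il1f10 were at 0 reads in all 10 libraries and Il1f9 reached 9.

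The interleukin 36 receptor Il1rl2 was at 7.99, 8.86 and 8.47 in control, 8.32, 7.91, 2.55 and 5.85 in Mertk KO, and 1.45, 6.82 and 6.72 in Ptdss1 knockdown libraries. All knockdown libraries lay below control, whereas the Mertk KO libraries overlapped it. Such a separation in the knockdown was found in 1 of the 6 tested ligands and receptors and in 3.6% of all tested genes. The log2 fold change of Il1rl2 was -3.45 (SE 1.88, adjusted p = 0.841 by limma) in the knockdown and -2.28 (SE 1.76, adjusted p = 1.0) in Mertk KO. Without knockdown replicate 1 the first was -1.67, and without Mertk KO replicate 3 the second was -1.08. Il18r1, a chain of the interleukin 18 receptor, had at most 72 reads, with values of -2.06 (SE 1.70) in Mertk KO and -3.29 (SE 1.82) in the knockdown, where all 3 libraries were at 0. Without control replicate 2 these were -3.71 and -4.93.

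In the signalling list, the adaptor Myd88 had log2 fold changes of 0.92 (SE 0.66) in Mertk KO and 1.33 (SE 0.71) in the knockdown, and the kinase partner Tab1 of 2.09 (SE 1.44) and 2.82 (SE 1.54). Without control replicate 3, which had the lowest Myd88 value, those of Myd88 were 0.14 and 0.55. Control replicate 2 had 5 Tab1 reads against 216 and 166 in the other control libraries. Without it the Tab1 values were 0.57 and 1.30, and without both control replicate 2 and knockdown replicate 1 the knockdown value was 0.057. The inhibitor Tollip had 592 to 1325 control reads, 385 to 955 Mertk KO reads and 15, 413 and 656 knockdown reads. All 3 knockdown values of Tollip lay below control on the log2 scale (fold change -2.40, SE 1.12, adjusted p = 0.841 by limma), but Mertk KO replicate 3 was lower than knockdown replicates 2 and 3. In the knockdown, 2 of the 17 signalling genes lay fully below control, against 3.6% of all tested genes, and 1 fully above, against 3.32%. Without knockdown replicate 1 the Tollip fold change was -0.80. In Mertk KO the kinase Mapk14 stood at -0.47 (SE 0.52), or -0.25 without Mertk KO replicate 1.

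Among the inflammasome genes, the sensor Nlrp1a had 9, 0 and 0 reads in control, 49, 56, 287 and 190 in Mertk KO and 0, 52 and 59 in knockdown libraries. Every Mertk KO library was above control (log2 fold change 5.70, SE 1.84, adjusted p = 1.0 by limma). Of the 24 tested inflammasome genes, 4 lay fully above control in Mertk KO, against 3% of all tested genes. Fully below control lay 1 of the 24, against 2.62%. Nlrp1a has near copies, among them Nlrp1b, and reads shared between them are uncertain. Gbp2, an interferon-induced GTPase, had control levels of 12.68, 11.89 and 12.26 and Mertk KO levels of 13.45, 13.34, 13.55 and 13.07, again without overlap (1.08, SE 0.43, adjusted p = 1.0). The channel gene Panx1 was at 1.19 (SE 0.71), and at 0.39 without control replicate 2.

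The fold changes of the 3 inflammasome genes named for the knockdown depended on the libraries of low complexity, control replicate 2 and knockdown replicate 1. Gsdme, a second gasdermin, had 117, 0 and 99 control reads and 1779, 100 and 282 knockdown reads. Its log2 fold change was 3.94 (SE 2.10), 1.81 without control replicate 2 and 0.61 without that library and knockdown replicate 1. Nlrp1b had 338, 1070 and 278 control reads and 1, 387 and 398 knockdown reads. Its fold change of -2.86 (SE 1.58) was -0.41 without knockdown replicate 1 and 0.33 without both libraries. Casp12, a caspase related to Casp1, had 559, 507 and 134 control reads and 0, 172 and 441 knockdown reads. Its fold change of -3.03 (SE 1.74) was -0.46 without knockdown replicate 1 and -0.017 without both libraries. The adjusted p of all 3 was 0.841 by limma over all libraries.

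In the NF-kB list, the acute-phase gene Saa3 had the widest spread. It was at 6.72, 3.64 and 4.77 in control, 15.12, 10.37, 13.79 and 4.82 in Mertk KO, and 3.89, 10.39 and 4.36 in knockdown libraries. Of the 4 Mertk KO libraries 3 were far above control and 1 was within its range (log2 fold change 5.98, SE 2.15, adjusted p = 1.0 by limma). The inhibitor Nfkbib was at 1.21 (SE 0.83) and the subunit Relb at 2.19 (SE 1.56) in Mertk KO. Control replicate 2 was the lowest control library for both, with 111 reads of Nfkbib and 16 of Relb, and without it the values were 0.23 and 0.78. In the knockdown, Nfkbiz was at 1.30 (SE 0.66), the chemokine Ccl3 at 1.06 (SE 0.70) and the co-factor Bcl3 at 1.26 (SE 0.85), with an adjusted p of 0.841 each by limma. Without knockdown replicate 1 the value of Bcl3 was 0.44, and without control replicate 2 and knockdown replicate 1 together that of Nfkbiz was 0.63.

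**Figure D4:**
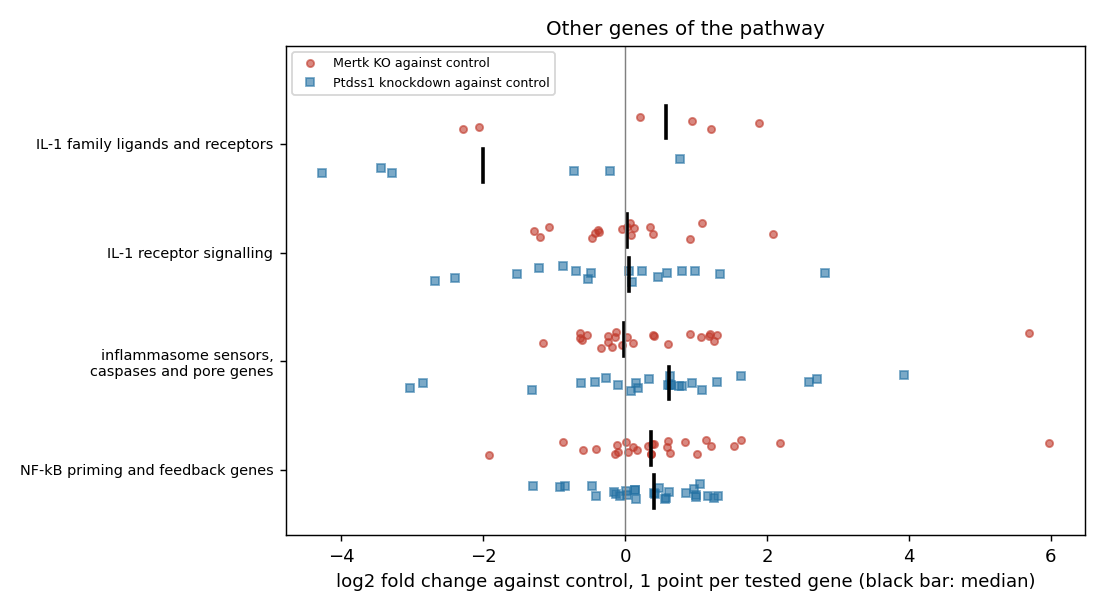
Log2 fold change against control of every tested gene (points) in the 4 pathway lists, for Mertk KO and Ptdss1 knockdown macrophages, with the list medians marked. The medians run from -2.0 for the ligands and receptors in the knockdown to 0.61 for the inflammasome genes in the knockdown, and no point passed the adjusted threshold.

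Genes with the most similar profile over the 10 libraries were found by the root mean square difference of log2 levels, each gene centred on its own mean, among 8991 genes. For Il1b, whose own root mean square deviation was 0.49, they were Pnrc2 (0.28), Il2rg (0.30), Csnk1g3 (0.32) and Ripk3 (0.32). For Il1r2, whose own deviation was 3.04, they were Orc6 (1.61), Cep152 (1.68), Mthfd2 (1.78) and E2f2 (1.83). All profiles share the same libraries and their depth.

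**Figure D5:**
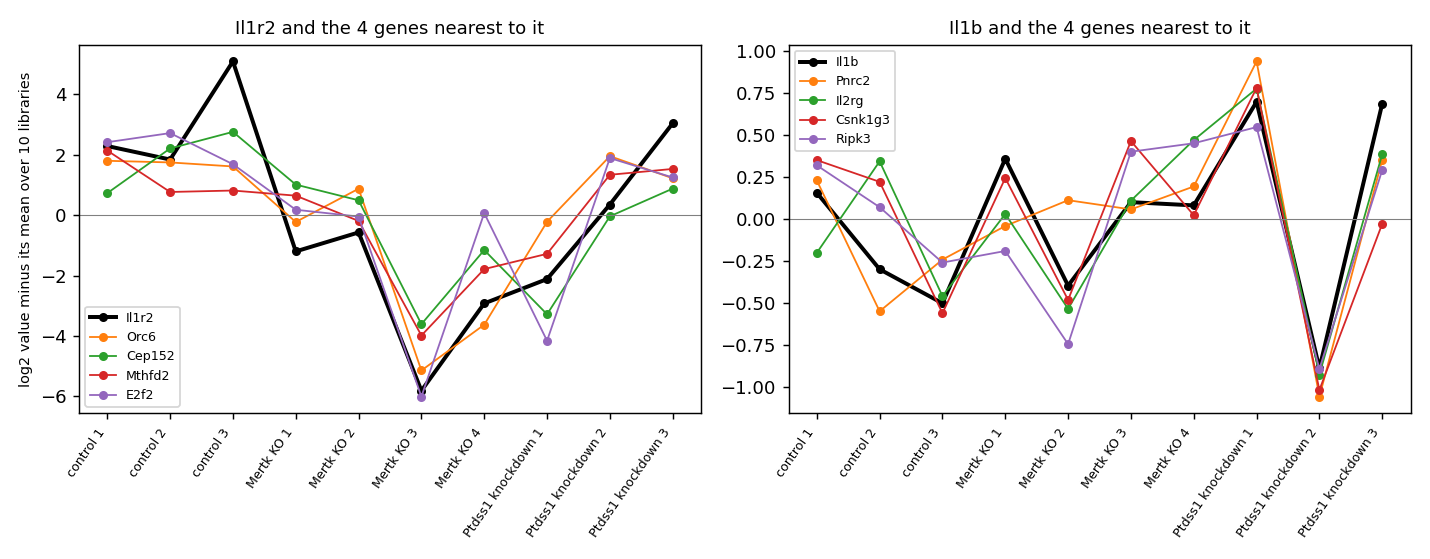
Centred log2 level over the 10 libraries (x axis) of Il1r2 (left) and Il1b (right), each with its 4 most similar genes; the y axes differ. All 5 profiles on the left are above 0 in the 3 control libraries and lowest in Mertk KO replicate 3, and those on the right are highest or near their highest in Ptdss1 knockdown replicate 1 and lowest in replicate 2.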

How the data were processed

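Macrophage cDNA was made with SMART-Seq v4 and 16 PCR cycles, and sequenced as unstranded single reads of 75 cycles, per the labels' protocols. The submitters' processing notes name STAR, RSEM and mm10, without versions or settings. The authors deposited 1 table per library, without a stated unit. The deposited values were read as log2 of reads over a size factor, plus 1, because undoing the log gave whole reads for 100% of values (tolerance 0.01). Without molecular identifiers, these reads are not independent molecules.

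The deposited log2 values were fitted with limma 3.58.1 (limma-trend, robust, R 4.3.3) over all 10 libraries with a mean per group. Genes with at least 10 reads in at least 3 libraries were tested, and p-values were two-sided and Benjamini-Hochberg adjusted over all 11564. The test was run on simulated counts with the same variability for every gene and no libraries of low complexity. That run does not show how the test behaves with the wider spread of these libraries. Coordinates are from GENCODE M21 on GRCm38, and promoter sequences from RefSeq (GRCm38.p6). Levels per length use the joined length of all annotated exons of a gene and total recovered reads.

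The 10 genes, the 4 lists and the markers were chosen with earlier results of these data known. Besides the 10 genes, up to 3 genes of smallest unadjusted p per list and comparison, and the 4 genes nearest to Il1b and to Il1r2, are named. Alternatives covered scaling, filters, pseudocount 8, voom, array weights, other fits and leaving out libraries.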

Additional observations from a re-analysis of the deposited data

Results flagged for a closer look

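In the Mertk KO group, 34 sets of 4 values were checked for a library far from the others, and chance alone sets apart about 1 in 20. Gsdme in Mertk KO replicate 4 was at a log2 level of 1.767, against 6.58 to 7.29 in the other 3 libraries of the group. Nlrp1b in Mertk KO replicate 2 was at 7.924, against 9.60 to 9.72 in the other 3, and was within the control range of 7.67 to 10.13.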

How the results depend on the processing

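No paired analysis was possible because the labels number the libraries without linking a number in one group to a number in another. The 2 genes passing in Mertk KO against control became 0 with upper-quartile scaling, with no filter and with a stricter filter, 1 without robust moderation, 25 with array weights and 0 to 4 when single libraries were left out. With array weights 1 member, Il1r2, passed there (-4.54), 2 genes passed in Ptdss1 knockdown against control and 35 in Mertk KO against Ptdss1 knockdown. In the last comparison 1 gene passed without both low-complexity libraries (control replicate 2 and Ptdss1 knockdown replicate 1) and 1 with detected genes as a covariate. Upper-quartile scaling moved the median of all genes from -0.053 to -0.23 in the knockdown against control.

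Some fold changes changed sign, most of them small, but also those of Nlrp1b in the knockdown (-2.86 with all libraries) and Nfkbib in Mertk KO (1.21). In Mertk KO these were Il1a (-0.26) and Nfkbib (-0.30) with array weights, Casp1 with voom (0.053) and without both low-complexity libraries (0.010), and Pycard without both (-0.074). In the knockdown they were Nlrp3 (-0.28) and Pycard (-0.0091) with array weights, and Nlrp3 (-0.33), Gsdmd (-0.034) and Nlrp1b (0.33) without both. Leaving out single libraries gave, in Mertk KO, -0.010 to 0.24 for Il18bp, -0.15 to 0.66 for Nlrp3, -0.37 to 0.31 for Casp1 and -0.074 to 0.63 for Pycard. In the knockdown it gave -0.19 to 0.86 for Il1a, -0.77 to 1.15 for Nlrp3, -0.14 to 0.56 for Pycard and -0.15 to 0.88 for Gsdmd. The cause was not tested. The sign of Il1r2 held in all 21 alternatives in both comparisons with control. Some of these, such as other filters, no robust moderation or leaving out a library of the group not compared, cannot change a fold change. Groups of 3 or 4 libraries and unequal complexity limit the precision.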

Other observations

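Read numbers of Tnf and Il6, cytokines that macrophages make after NF-kB activation, are given as values. Tnf had 1183, 238 and 351 reads in control, 1431, 851, 1881 and 1284 in Mertk KO and 11, 292 and 5244 in Ptdss1 knockdown libraries. Its lowest library was knockdown replicate 1, where Il1b was highest, and its highest was knockdown replicate 3. Il6 was at 0 reads in 6 of the 10 libraries and had 55 to 99 reads in the other 4. Both genes are named after their values were seen.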
